A study of Rattus norvegicus with 23 samples.

Results

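Matrix metalloproteinases (Mmp), ADAMTS proteinases and the tissue inhibitors of metalloproteinases (Timp) were followed in the lungs of elderly rats after inhalation of a titanium dioxide (TiO2) nano-aerosol. The members were the genes whose symbol on the array was Mmp, Adamts or Timp followed by a number, which gave 45 of the 25597 gene symbols: 22 Mmp, 19 Adamts and 4 Timp genes, with 70 probes. After the filter on dim probes, 61 probes and 40 genes of the family remained among 23029 genes. Adamts20, Mmp10, Mmp20, Mmp21 and Mmp27 were not measured, and their signal was well above background on 0 of 23 arrays.

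Total RNA came from the accessory lobe of male F344 Fisher rats that were 19 months old when inhalation began, with 1 rat per single-colour array. Exposed rats breathed TiO2 at 10 mg/m3 through the nose for 6 hours a day, 5 days a week, during 4 weeks, and control rats breathed filtered air. Lungs were taken at the end of exposure (D0; 6 control and 5 exposed arrays) or 28 days later (D28; 6 control and 6 exposed arrays). One label of the exposed D28 arrays reads day 0, whereas their titles and descriptions give day 28, which was used. The lung markers Sftpc, Sftpb, Sftpa1, Ager, Scgb1a1 and Cdh5 were each well above background on arrays of all 4 groups. The arrays came from 5 slides, and 1 control array of D28 (replicate 4) was alone on its slide. That array was also the only one from a later software version. It had the highest 75th percentile of signal (3470.1) and the largest share of spots well above background (77.85%). Values are log2 processed signals after quantile normalization, and a difference of 1 is a doubling. In a whole lobe, fewer cells of a type and less RNA per cell cannot be told apart.

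Mmp enzymes are zinc proteinases secreted or held at the cell surface as inactive precursors, and together they cleave most proteins of the extracellular matrix. ADAMTS enzymes are secreted relatives with thrombospondin repeats, several of which cut the proteoglycans of cartilage and vessel wall. The Timp proteins bind the active site of Mmp enzymes and block it. In the lung, Mmp12 is a product of alveolar macrophages, Mmp8 and Mmp9 are stored in neutrophil granules, and Mmp7 is made by epithelium.

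Few members were called for TiO2, and a member that was not called may still have changed. On D0, 2 of the 40 measured members were over-expressed in exposed rats, Mmp7 and Mmp14, and 0 were under-expressed (4 were lower at an unadjusted limma p below 0.05), where a member was called differentially expressed at a limma adjusted p below 0.05 and a fold change (FC) of at least 1.5. Of all genes, 1.79% were called on D0, and 1.09% as over-expressed. The slide was not a term of this fit, and arrays of a slide had a fitted correlation of 0.289. With the slide as a fixed term or random block, Mmp7 stayed called on D0 and Adamts1, which was lower, was called in place of Mmp14. On D28, Mmp7 was the 1 member called, against 0.756% of all genes, and 5 members were lower at an unadjusted p below 0.05. Between control rats of D28 and D0, Adamts4 was the 1 member called, against 0.608% of all genes. The difference of the TiO2 effect between the days called 0 members with limma, against 0.0304% of all genes, while 1 member was higher and 2 were lower at an unadjusted p below 0.05, which 3.44% of all genes passed. With counts this small, the shares of members called are a description of these genes. The median log2 FC of the 40 members was -0.03 on D0 and -0.07 on D28, and 19 members were higher than control on D0 and 11 on D28. Over all genes, 49.9% were higher on D0 and 48.8% on D28.

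**Figure D1:**
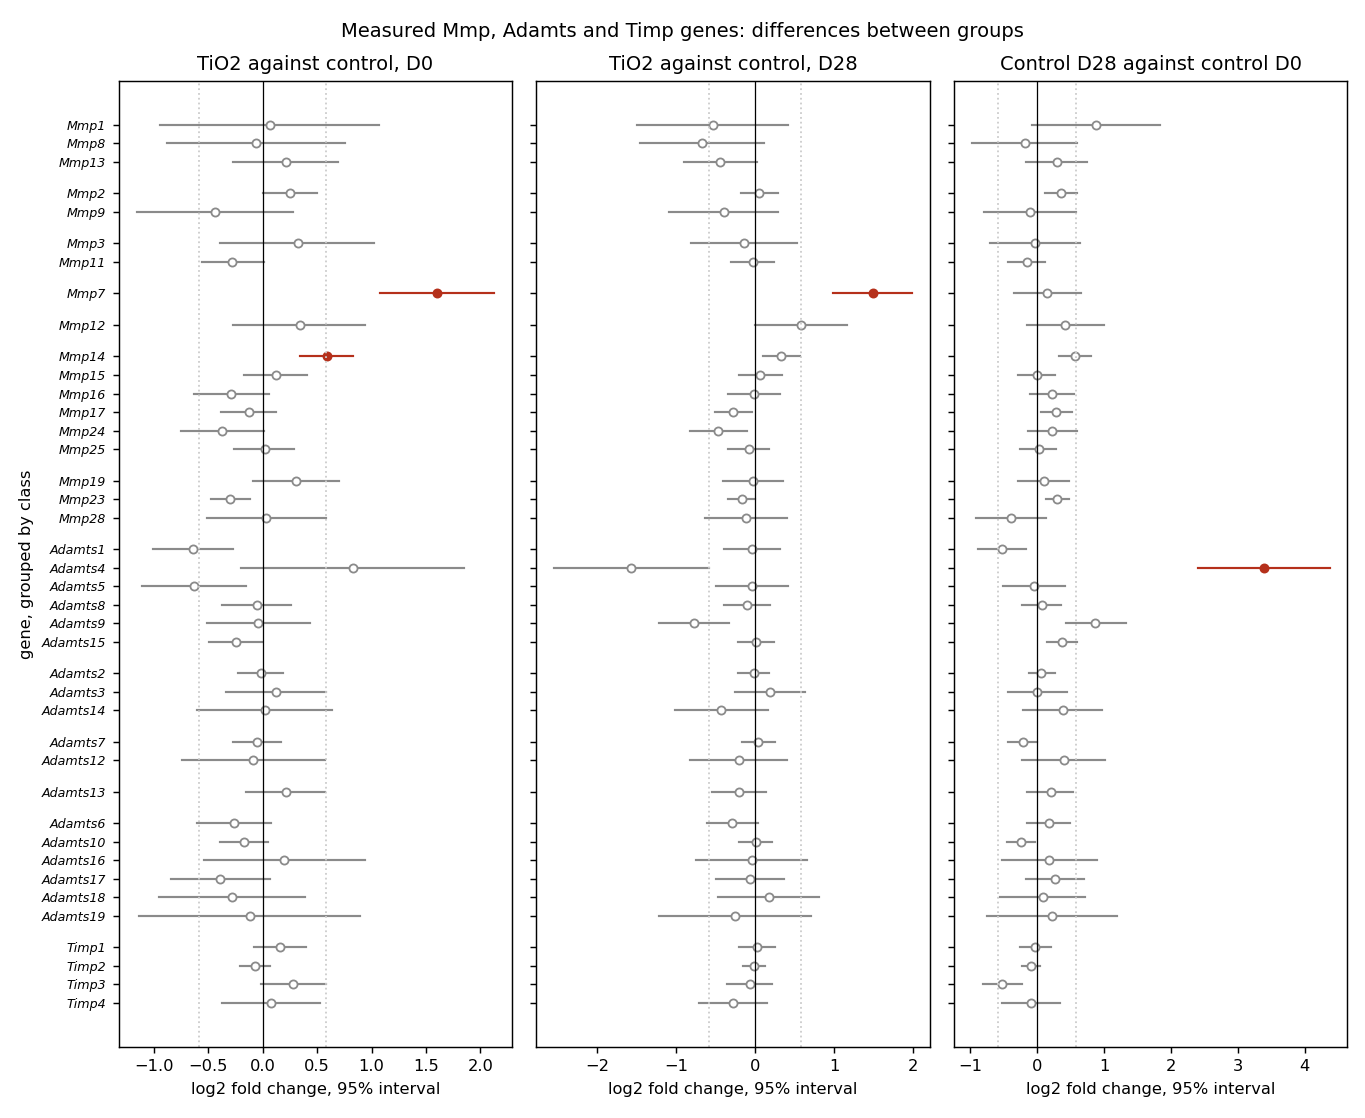
Log2 fold change with its 95% interval for the 40 measured genes, by class, for TiO2 against control on D0 and on D28 and for control D28 against control D0. Filled red points are called genes (Mmp7 and Mmp14 on D0, Mmp7 on D28, Adamts4 between the controls), dotted lines mark an FC of 1.5, and the horizontal scales of the 3 panels differ. Mmp1, Adamts4, Adamts16 and Adamts19 had groups with 0 arrays well above background, where the points are fitted values only.

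Mmp7 (matrilysin), a small epithelial proteinase that cleaves adhesion molecules and activates other Mmp precursors, was the member with the highest log2 FC on both days. On D0 its signals were 6.56, 7.21, 6.64, 6.57, 6.73 and 7.39 in control rats and 8.71, 8.63, 8.62, 8.0 and 8.32 in exposed rats. The groups did not overlap. Its level was 6.85 ± 0.36 (SD, n = 6) in control rats and 8.46 ± 0.29 (SD, n = 5) in exposed rats, a log2 FC of 1.60 (SE 0.25, 95% interval 1.08 to 2.13, limma adjusted p = 0.000903), or 3.04-fold. On D28 the signals were 6.80, 6.78, 7.57, 7.91, 6.50 and 6.47 in control rats and 8.52, 8.89, 7.84, 8.86, 8.27 and 8.58 in exposed rats. The groups met where 1 control rat (replicate 4, 7.91) lay above 1 exposed rat (replicate 3, 7.84), and the other control rats lay below every exposed rat. The level was 7.01 ± 0.60 (SD, n = 6) in control rats and 8.50 ± 0.39 (SD, n = 6) in exposed rats, a log2 FC of 1.49 (SE 0.24, limma adjusted p = 0.0027), or 2.81-fold.

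The TiO2 effect on Mmp7 differed between D28 and D0 by -0.11 (95% interval -0.84 to 0.61, limma adjusted p = 1), an interval that leaves room for a fall as well as a rise. Within the slides that held both groups, exposed rats were higher on each of 4 slides on D0, by 1.22 to 1.87, and on each of 3 slides on D28, by 1.41 to 2.42. Mmp7 kept its call on D0 in each of 12 other settings and in each of 23 fits without 1 array. On D28 the call was lost when only the arrays of that day were fitted (log2 FC 1.49, limma adjusted p = 0.0577). Control rats of the 2 days had Mmp7 levels that differed by 0.15 (SE 0.24, limma adjusted p = 0.85). Its probe lies at chr8:4533647-4533706 of the rat build rn4, which the array files give, and the place of the probes within exons or untranslated regions was not determined.

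**Figure D2:**
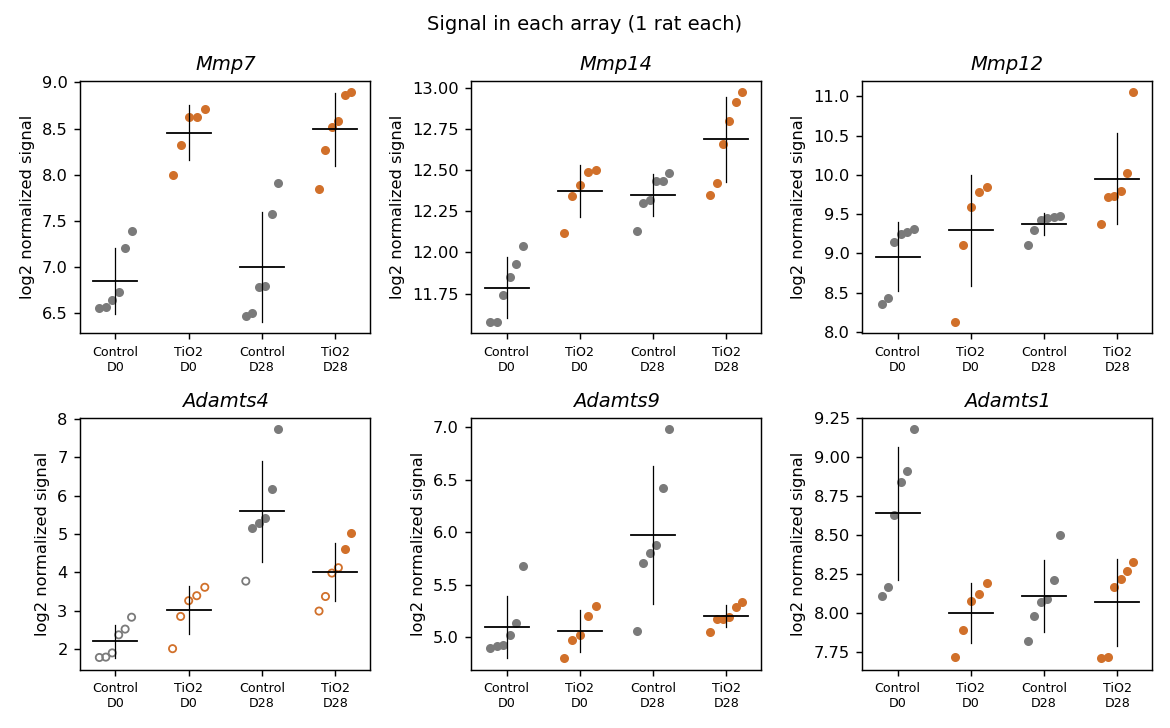
Log2 normalized signal of 6 genes in each array, 1 point per rat, with the mean (horizontal line) and 1 SD (vertical line) of each group, and open points where the signal was not well above background. Exposed rats were above all control rats on D0 for Mmp7 and Mmp14, and Adamts4 was well above background in D28 arrays alone.

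Mmp7 sits in a cluster of Mmp genes on rat chromosome 8, and the probes of Mmp13, Mmp12, Mmp3, Mmp1, Mmp8 and Mmp7 follow each other in that order between 4168554 and 4533706 of rn4. None of the measured neighbours of Mmp7 was called in any comparison. The 250 bases before the RefSeq start of Mmp7 and of 3 of these neighbours, Mmp12, Mmp13 and Mmp3, are given with those of Adamts4, because Mmp7 and Adamts4 were called and the neighbours were not. The promoter of Mmp14, which was also called, was not analysed here. Capitals mark 3 kinds of letters that do not overlap each other. TGANTCA, which reads the same on both strands, covers the AP-1 sites TGAGTCA and TGACTCA. It also admits TGAATCA and TGATTCA, so its counts are wider than those of the AP-1 site. AGGAAG, read as CTTCCT on the other strand, is a core bound by ETS factors and was searched on both strands. TATAAA was searched on the strand of the gene.
Mmp7, chr8:13132793-13133042, GRCr8, plus strand: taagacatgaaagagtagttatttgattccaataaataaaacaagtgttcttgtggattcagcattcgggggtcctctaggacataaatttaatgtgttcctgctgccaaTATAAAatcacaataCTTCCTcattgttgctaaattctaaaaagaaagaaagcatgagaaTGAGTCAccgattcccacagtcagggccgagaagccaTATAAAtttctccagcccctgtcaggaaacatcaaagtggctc
Mmp12, chr8:12866402-12866651, GRCr8, plus strand: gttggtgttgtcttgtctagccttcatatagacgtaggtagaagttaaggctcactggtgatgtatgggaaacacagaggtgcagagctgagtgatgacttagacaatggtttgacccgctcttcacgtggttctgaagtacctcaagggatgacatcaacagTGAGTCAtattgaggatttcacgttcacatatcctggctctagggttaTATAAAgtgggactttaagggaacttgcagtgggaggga
Mmp13, chr8:12782579-12782828, GRCr8, plus strand: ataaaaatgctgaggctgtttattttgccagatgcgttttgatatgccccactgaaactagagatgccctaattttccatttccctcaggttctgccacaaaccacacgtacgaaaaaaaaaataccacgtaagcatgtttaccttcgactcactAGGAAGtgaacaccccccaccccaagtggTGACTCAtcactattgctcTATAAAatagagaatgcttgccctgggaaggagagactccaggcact
Mmp3, chr8:12925031-12925280, GRCr8, plus strand: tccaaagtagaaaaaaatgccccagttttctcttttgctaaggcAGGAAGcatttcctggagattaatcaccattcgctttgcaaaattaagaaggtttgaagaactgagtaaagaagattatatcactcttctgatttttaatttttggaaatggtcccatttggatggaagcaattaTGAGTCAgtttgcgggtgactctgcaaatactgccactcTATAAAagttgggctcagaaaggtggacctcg
Adamts4, chr13:86202761-86203010, GRCr8, plus strand: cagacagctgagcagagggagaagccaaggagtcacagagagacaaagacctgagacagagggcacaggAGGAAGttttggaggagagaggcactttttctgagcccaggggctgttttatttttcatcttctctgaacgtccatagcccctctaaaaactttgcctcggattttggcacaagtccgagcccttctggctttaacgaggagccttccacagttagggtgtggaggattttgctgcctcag

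RefSeq promoters were found for 29 of the 40 measured members. TGANTCA stood in 5 of the 29, Mmp1, Mmp3, Mmp7, Mmp12 and Mmp13, and in 6.36% of the 27457 promoters of the same length. The same 5 members held TATAAA, and 0.747% of all promoters held both. In Mmp7 the TGAGTCA began 80 bases before the start, CTTCCT 125 bases and the nearer TATAAA 43 bases before it. The Mmp12 window held TGAGTCA 87 bases before the start and not the ETS core. The Adamts4 window held AGGAAG 181 bases before the start, but not the other letters. The ETS core stood in 12 of the 29 members and in 29.4% of all promoters. Mmp7, which was called on both days, shared the AP-1 and TATA letters with 4 neighbours that were not called. Of these neighbours, Mmp1 was well above background on 1 of 23 arrays and Mmp3 on 8 of 23. For Mmp1 and Mmp3 the lack of a call therefore says little about a response to TiO2. The promoter matches describe letters and not bound sites.

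Mmp14 (MT1-MMP), a collagenase anchored in the cell membrane that activates pro-Mmp2, was higher in exposed rats on D0. Its signals were 11.58, 12.04, 11.85, 11.74, 11.58 and 11.93 in control rats and 12.49, 12.41, 12.50, 12.34 and 12.12 in exposed rats on D0. The groups did not overlap, as was the case for 4.31% of all genes on D0 and for 2 of the 40 members, Mmp7 and Mmp14. The log2 FC was 0.59 (SE 0.12, 95% interval 0.34 to 0.83, limma adjusted p = 0.00753). This is just above the limit of 0.58 that corresponds to an FC of 1.5. The adjusted p stayed below 0.05 in all 12 other settings and in all 23 fits without 1 array, with 0.0242 as the highest. The log2 FC fell below the limit in 6 of the 12 settings and in 6 of the 23 fits (without control D0 replicate 1, 4 or 5 or exposed D0 replicate 1, 2 or 3), as low as 0.54. Its 2 probes, which overlap at chr15:32503002-32503061 and chr15:32503012-32503071 of rn4, gave 0.59 and 0.58 on D0. Within slides the difference on D0 was 0.44 to 0.76 on 4 slides.

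On D28 the Mmp14 signals were 12.30, 12.48, 12.43, 12.13, 12.32 and 12.43 in control rats and 12.66, 12.80, 12.42, 12.97, 12.35 and 12.91 in exposed rats. The groups overlapped, as they did on D28 for all 40 members and for all but 1.22% of all genes. The log2 FC of 0.33 (SE 0.11, limma adjusted p = 0.192) did not pass. Control rats of D28 were above those of D0 without overlap, by 0.56 (SE 0.11, limma adjusted p = 0.0174), an FC of 1.48 that lay under the limit and passed it in fits without control D0 replicate 2 (0.61) or 6 (0.59) or control D28 replicate 4 (0.61). The other 5 membrane-type members, Mmp15, Mmp16, Mmp17, Mmp24 and Mmp25, were not called, with log2 FC of -0.37 to 0.12 on D0 and -0.47 to 0.06 on D28. The brightest of 4 Mmp16 probes gave -0.48 on D0 (SE 0.11, limma adjusted p = 0.0296), under the FC limit. Its other probes gave -0.30 to -0.14.

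Mmp12, the macrophage elastase, was not called on either day. Its signals on D0 were 8.35, 9.24, 9.14, 8.43, 9.27 and 9.31 in control rats and 9.85, 9.78, 9.59, 8.13 and 9.11 in exposed rats. The lowest of the 11 values belonged to an exposed rat (replicate 4) and the 3 highest to other exposed rats. The log2 FC was 0.34 (SE 0.29, 95% interval -0.27 to 0.94, limma adjusted p = 0.823). On D28 the 6 control rats were between 9.11 and 9.48 and the 6 exposed rats between 9.38 and 11.05. The overlap on D28 came from 1 exposed rat (replicate 2, 9.38) and 4 control rats above it, and the log2 FC was 0.58 (SE 0.28, 95% interval 0.00 to 1.16, limma adjusted p = 0.454). Of 15 macrophage markers, 13 were higher on D0, with Siglec1 (log2 FC 0.89, SE 0.16, limma adjusted p = 0.00262) and C1qb (0.65, SE 0.13, limma adjusted p = 0.00781) called, and the mean over the list was 10.09 to 10.27 in control rats and 10.39 to 10.76 in exposed rats. Of all genes, 1.09% were over-expressed on D0, and 0.756% were called on D28. On D28, 11 of the 15 markers were higher, 0 were called, and the list mean was 9.86 to 10.36 against 10.18 to 10.55. The part of macrophage number in the Mmp7 and Mmp14 results was not tested.

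The collagenases (Mmp1, Mmp8 and Mmp13, which cut fibrillar collagen), the gelatinases (Mmp2 and Mmp9, which cut denatured and basement membrane collagen) and the stromelysins (Mmp3 and Mmp11) included no called member in any comparison. Mmp13 had a log2 FC of 0.21 (SE 0.23) on D0 and -0.44 (SE 0.22, limma adjusted p = 0.486) on D28, where it was -0.12 after normexp correction and -0.19 in the deposited table. Mmp2 had 0.25 (SE 0.12, limma adjusted p = 0.426) on D0 and 0.05 (SE 0.11) on D28. Mmp11 had -0.28 (SE 0.14) and -0.03 (SE 0.13). Mmp3 was well above background on 8 of 23 arrays and had 0.32 (SE 0.34) on D0 and -0.14 (SE 0.32) on D28. Mmp1 was well above background on 1 of 23 arrays, so no direction can be read for it. On D28 the 95% intervals of Mmp2 (-0.18 to 0.29) and Mmp11 (-0.31 to 0.24) lay inside an FC of 1.5, while those of Mmp1, Mmp3, Mmp8, Mmp9 and Mmp13 reached past it. The other Mmp genes, Mmp19, Mmp23 and Mmp28, were not called either, with log2 FC of -0.30 to 0.31 on D0 and -0.17 to -0.03 on D28.

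Mmp8 (neutrophil collagenase) and Mmp9 (gelatinase B) varied on D0 between rats of a group (SD 0.56 to 0.72) more than they differed between groups. On D28 the SD was 0.87 for Mmp8 and 0.86 for Mmp9 in control rats. In exposed rats of D28 it was 0.35 and 0.18, below the size of the difference between groups. On D0 the Mmp8 signals were 6.13, 6.06, 7.31, 6.09, 6.14 and 7.54 in control rats and 7.11, 5.87, 6.15, 5.88 and 7.40 in exposed rats, a log2 FC of -0.06 (SE 0.39, limma adjusted p = 0.996). On D28 they were 6.33, 6.51, 6.89, 7.08, 6.62 and 4.67 in control rats and 5.78, 5.65, 5.49, 5.28, 6.31 and 5.52 in exposed rats, a log2 FC of -0.68 (SE 0.38, limma adjusted p = 0.557). All exposed rats of D28 lay below 5 of the 6 control rats, and control replicate 6 lay below them all. Mmp9 had a log2 FC of -0.44 (SE 0.35, limma adjusted p = 0.784) on D0 and -0.40 (SE 0.33, limma adjusted p = 0.746) on D28, and the latter was -0.74 (limma adjusted p = 0.189) without control D28 replicate 6. The rats with high Mmp8 were those with high Mmp9. Over the 23 arrays, deviations from the group means of the 2 genes had a Pearson r of 0.92 (permutation p = 5e-05 within groups, adjusted p = 0.00025) and a Spearman rho of 0.91 (permutation p = 4e-05, adjusted p = 2e-04).

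These relations were chosen after the values were seen, and 5 were computed, so the adjusted p covers those 5 alone. The permutation within groups did not keep arrays of a slide together. Without the 2 arrays farthest from the median of Mmp8, r was 0.86, and within the 4 slides of at least 4 arrays it was 0.86 to 0.98. The mean of 12 neutrophil markers, which holds neither gene, followed Mmp9 (r = 0.82, rho = 0.75, permutation adjusted p = 0.00107 and 0.00147) and Mmp8 (r = 0.72, rho = 0.66, permutation adjusted p = 0.00398 and 0.00457). Without the 2 farthest arrays r was 0.68 for Mmp9 and 0.57 for Mmp8. Within slides r was 0.64 to 0.95 for Mmp9 and 0.62 to 0.91 for Mmp8. The relation did not pass between the macrophage list and Mmp12 (r = 0.05, rho = 0.11, permutation adjusted p = 0.839 and 0.641) or Mmp7 (r = -0.25, rho = -0.21, permutation adjusted p = 0.412 and 0.486), where values within slides had both signs. All 5 relations used deviations from the group means, so they cannot show whether a list and a gene rose together with TiO2. On D0, 6 of the 12 neutrophil markers were higher in exposed rats and Lcn2 (log2 FC 1.65, SE 0.28, limma adjusted p = 0.00139), which epithelium also makes, was called. Of all genes, 1.09% were over-expressed on that day.

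**Figure D3:**
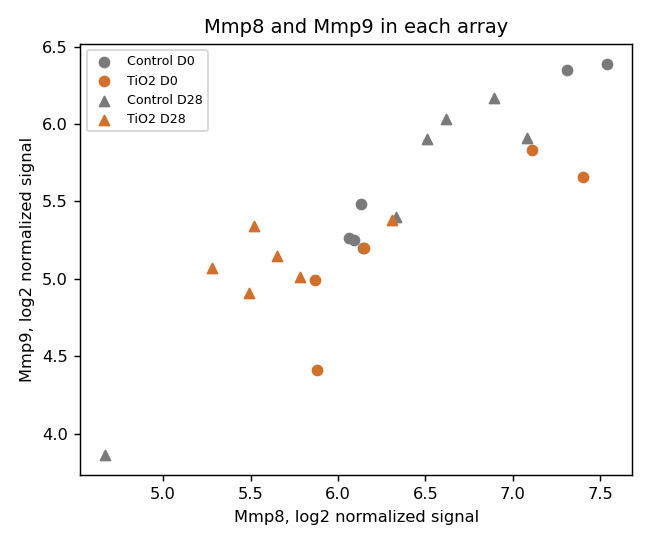
Log2 normalized signal of Mmp9 (vertical) against Mmp8 (horizontal) in the 23 arrays, with circles for D0, triangles for D28, grey for control and orange for TiO2. The genes rose and fell together between rats, with r = 0.92 for deviations from the group means, and control D28 replicate 6 was lowest for both (4.67 and 3.86).

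Adamts4 (aggrecanase-1), which cuts aggrecan and versican, differed between the D0 and D28 groups of rats that breathed filtered air. These groups were different rats, and the age of the rats and the time since inhalation ended cannot be told apart. Its signals in control rats were 2.37, 2.83, 1.78, 1.90, 2.52 and 1.79 on D0, where 0 of 6 arrays were well above background, and 3.77, 6.17, 5.15, 7.73, 5.28 and 5.42 on D28, where 5 of 6 arrays were well above background. The groups did not overlap. On the scale of the processed signals, the D28 level was 4.91-fold above the lowest signals that were well above background on the D0 control arrays. Signals not well above background reached 4.40 on these arrays (Mmp13, control D0 replicate 2), so 4.91-fold is not a strict lower bound. The fitted log2 difference was 3.39 (SE 0.47, limma adjusted p = 0.000442). It stayed called in 11 other settings and 23 fits without 1 array, but its size depended on how background was treated, with 0.76 after normexp correction with an offset of 50 and 1.17 in the deposited table, which has no background correction. Both of these lay under 4.91-fold, a value that holds for the processed signals alone. The probe passed the filter on dim probes on 3 of 6 control and 4 of 5 exposed arrays of D0, and with no filter the difference was 3.38 (limma adjusted p = 0.000517). Within slides the controls of D28 were higher by 2.08 to 3.63 on each of 3 slides. The probe lies at chr13:87151686-87151745 of rn4.

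Exposed rats had Adamts4 signals of 2.01, 3.26, 3.39, 3.61 and 2.85 on D0, with 0 of 5 arrays well above background, so no fold is given for D0. On D28 their signals were 3.98, 5.03, 4.12, 4.61, 2.99 and 3.37, with 2 of 6 well above background. All 6 lay below the 5 highest control rats and 4 lay above control replicate 1 (3.77). The log2 FC on D28 was -1.57 (SE 0.47, limma adjusted p = 0.119) and did not pass. It was -0.50 after normexp correction and -0.74 in the deposited table. Without 1 array it lay between -1.14 (without control D28 replicate 4) and -1.93 (without control D28 replicate 1), and the latter alone passed (limma adjusted p = 0.0307). The comparisons of D28 and of the controls share the D28 control arrays, so both hold the same high values.

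Adamts9, another proteoglycan-cleaving enzyme, had signals of 5.06, 6.98, 6.42, 5.88, 5.80 and 5.71 in control rats and 5.17, 5.19, 5.34, 5.29, 5.05 and 5.17 in exposed rats on D28. The exposed rats lay in a narrow band, below every control rat but replicate 1, which was also the lowest control rat for Adamts4. These signals average a brighter probe and 1 near background. The latter passed the filter on dim probes on 4 of 6 control and 0 of 6 exposed arrays of D28. On D28 the brighter probe alone gave -0.69 (SE 0.22, limma adjusted p = 0.203) and the other -0.85 (SE 0.34, limma adjusted p = 0.364). The log2 FC on D28 was -0.77 (SE 0.22, limma adjusted p = 0.084), and it was -0.38 after normexp correction and -0.44 in the deposited table. Without 1 array it lay between -0.57 (without control D28 replicate 2) and -0.96 (without control D28 replicate 1), and the latter alone passed (limma adjusted p = 0.0139). Control rats of D28 exceeded those of D0 by 0.87 (SE 0.22, limma adjusted p = 0.0577), which did not pass. Of its 2 probes, 1 lay near background in all groups (group means 1.74 to 2.60), and the other, at chr4:126996632-126996691 of rn4, had group means of 8.29 in D0 controls and 9.35 in D28 controls and gave 1.06 (SE 0.22, limma adjusted p = 0.0256). The averaged value also passed with 75th percentile scaling (0.90, limma adjusted p = 0.0495) and without control D0 replicate 5 or control D28 replicate 1 (0.99 and 1.06), and it was 0.54 after normexp correction and 0.53 in the deposited table, both under the FC limit.

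Adamts1, an enzyme of the same class, had signals of 8.63, 8.17, 8.84, 9.18, 8.11 and 8.91 in control rats and 7.72, 8.08, 8.19, 7.89 and 8.12 in exposed rats on D0. The signals of 4 control rats lay above every exposed rat and the other 2 lay among the highest exposed rats. The log2 FC was -0.64 (SE 0.18, limma adjusted p = 0.0563), just short of the threshold, and it passed with the slide as a fixed term (-0.68, limma adjusted p = 0.0042) or as a random block (-0.67, limma adjusted p = 0.00557), and in 2 further settings and 4 fits without 1 array (-0.64 to -0.75). On D28 it was -0.04 (SE 0.17), and the difference between the days was 0.60 (SE 0.25, limma adjusted p = 1). The D28 value averages 2 probes of opposite sign. The brighter probe of Adamts1 gave -0.57 (SE 0.14) on D0 and -0.29 (SE 0.14) on D28. The dimmer probe gave -0.72 (SE 0.31) on D0 and 0.20 (SE 0.29) on D28. Adamts5 (aggrecanase-2) had -0.63 (SE 0.23, limma adjusted p = 0.196) on D0 (-0.16 after normexp correction and -0.27 in the deposited table) and -0.04 (SE 0.22) on D28. Of the 6 measured proteoglycan-cleaving members, 5 had a lower mean in exposed rats on D0 and 5 on D28, with 0 called. Adamts13, which cuts von Willebrand factor, had 0.21 (SE 0.17) on D0 and -0.20 (SE 0.17) on D28. The procollagen N-proteinases Adamts2, Adamts3 and Adamts14 lay between -0.02 and 0.12 on D0 and between -0.43 and 0.19 on D28. The remaining 8 Adamts genes were not called either. Adamts16 and Adamts19 were well above background on 5 and 2 of 23 arrays and are given no value, and the other 6 had -0.39 to -0.05 on D0 and -0.29 to 0.17 on D28.

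The 4 Timp genes were not called in any comparison. Timp1 was between 11.64 and 12.16 in control rats and between 11.91 and 12.14 in exposed rats on D0, a log2 FC of 0.16 (SE 0.12, 95% interval -0.08 to 0.40). On D28 its log2 FC was 0.02 (SE 0.11, 95% interval -0.21 to 0.25). Timp2 had -0.07 (95% interval -0.21 to 0.07) on D0 and -0.02 (95% interval -0.15 to 0.12) on D28, so that an FC of 1.5 lay outside its interval on both days, as it did for Timp1. Timp3, which is bound to the matrix and also inhibits ADAMTS enzymes, had 0.28 (SE 0.15, limma adjusted p = 0.496) on D0, where exposed replicate 1 (12.64) stood above the other exposed rats (11.78 to 11.99), and -0.07 (SE 0.14) on D28. Without that replicate the D0 value was 0.13. Timp4 had 0.08 (SE 0.22) and -0.28 (SE 0.21). Between the controls, Timp3 was lower on D28, at 10.96 to 11.60, than on D0, at 11.64 to 11.89, without overlap, but the log2 difference of -0.52 (SE 0.14, limma adjusted p = 0.085) did not pass. Its 3 probes gave -0.66, -0.42 and -0.49.

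**Figure D4:**
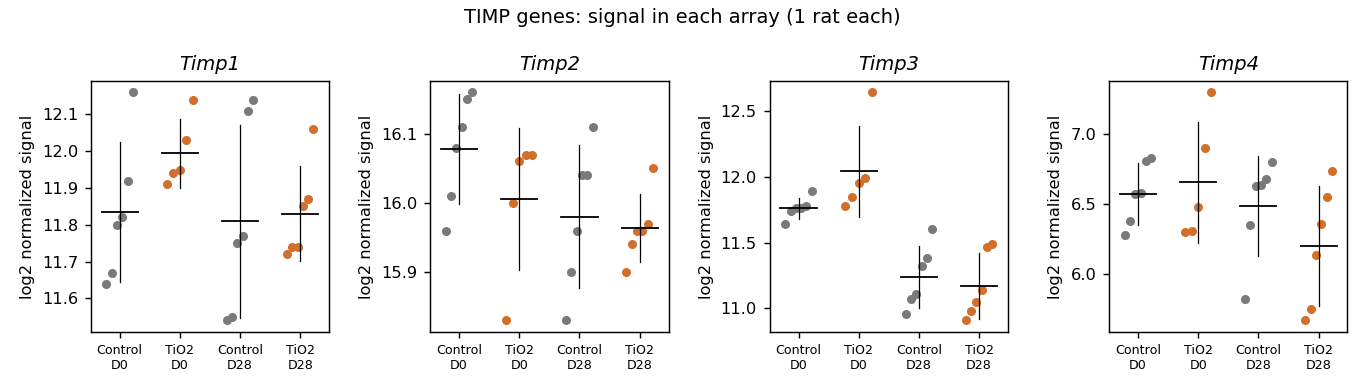
Log2 normalized signal of the 4 Timp genes in each array, 1 point per rat, with the mean (horizontal line) and 1 SD (vertical line) of each group, each panel on its own vertical scale. Exposed and control rats overlapped on both days for each gene, and control rats of D28 lay below those of D0 for Timp3.

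Between the control rats of the 2 days, 26 of the 40 members were higher on D28 and 14 lower, with a median of 0.13 on the log2 scale, where 48.9% of all genes were higher and their median was -0.01. The controls of D0 and D28 did not overlap for 4 members, Adamts4, Mmp14 and Mmp23 (higher, the last by 0.30, limma adjusted p = 0.102, named after its values were seen) and Timp3 (lower), and for 1.62% of all genes. Between these controls, 0.608% of all genes were called. Of 23 measured matrix substrates of these enzymes, 19 had a higher mean in D28 controls and 3 were called, namely Eln (elastin, log2 difference 2.37, SE 0.14, limma adjusted p = 3.31e-09), Col1a1 (1.60, SE 0.15, limma adjusted p = 1.83e-06) and Col3a1 (1.29, SE 0.12, limma adjusted p = 1.65e-06). Of 10 fibroblast markers, 8 had a higher mean and Col1a1, Col3a1 and Pdgfrb (0.80, SE 0.14, limma adjusted p = 0.00424) were called, with a list mean of 9.28 to 9.60 in D0 controls and 9.79 to 10.13 in D28 controls. In exposed rats 8 of the 10 had a lower mean than in controls on D0, with Tcf21 called (-0.66, limma adjusted p = 0.0193), and 8 on D28, with 0 called. For exposed against control rats, 1.79% of all genes were called on D0 and 0.756% on D28. The list mean was 8.77 to 9.46 in exposed rats of D0 and 9.61 to 10.02 in those of D28. The part of fibroblast number in the Adamts4 difference was not tested.

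Among the genes around the family, inhibitors other than the Timp genes were called on both days. On D0, where 1.09% of all genes were over-expressed, 3 of 17 inhibitors and regulators were: A2m (alpha-2-macroglobulin, which traps proteinases, log2 FC 1.56, SE 0.34, limma adjusted p = 0.0119), Serpine2 (a serine proteinase inhibitor, 1.08, SE 0.14, limma adjusted p = 0.000219) and Serpina3n (0.95, SE 0.25, limma adjusted p = 0.0406). On D28, where 0.756% of all genes were called, 2 of 17 were over-expressed, among them Serpine2 (0.62, SE 0.14, limma adjusted p = 0.0272). Of 23 related proteinases, Ctsk, the collagen-cutting cathepsin K, was called on D0 (0.67, SE 0.14, limma adjusted p = 0.0096) and on D28 (0.84, SE 0.14, limma adjusted p = 0.0027). Of 15 known inducers of these enzymes, Fosl1, a subunit of AP-1 (1.99, SE 0.32, limma adjusted p = 0.00105), Tnf (1.06, SE 0.22, limma adjusted p = 0.00887) and Osm, the cytokine oncostatin M (0.59, SE 0.11, limma adjusted p = 0.00357), were over-expressed on D0, and none of the 15 was called on D28.

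Of the 23 substrates, Spp1 (osteopontin, which Mmp3 and Mmp7 cleave) was over-expressed on D0 (log2 FC 2.20, SE 0.51, limma adjusted p = 0.0199) and on D28 (2.13, SE 0.49, limma adjusted p = 0.0332). Eln, a substrate of Mmp12, was under-expressed on D28 (-1.14, SE 0.14, limma adjusted p = 0.000288), in the comparison that shares its control arrays with the higher Eln of D28 controls. The 4 measured ADAMTS-like genes, which lack the proteinase part, included 0 called genes in any comparison. The list medians on D0 were 0.14 for the inhibitors, 0.12 for the related proteinases, 0.01 for the inducers and -0.00 for the substrates, against -0.00 for all genes. All 4 mesothelial markers were lower on D0, with Wt1 and Lrrn4 called (both -0.62), and the list mean was 8.65 to 8.99 in control rats and 8.15 to 8.46 in exposed rats. On D28 all 4 were lower again (median -0.36), with 0 called. Of all genes, 1.79% were called on D0 and 0.756% on D28.

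**Figure D5:**
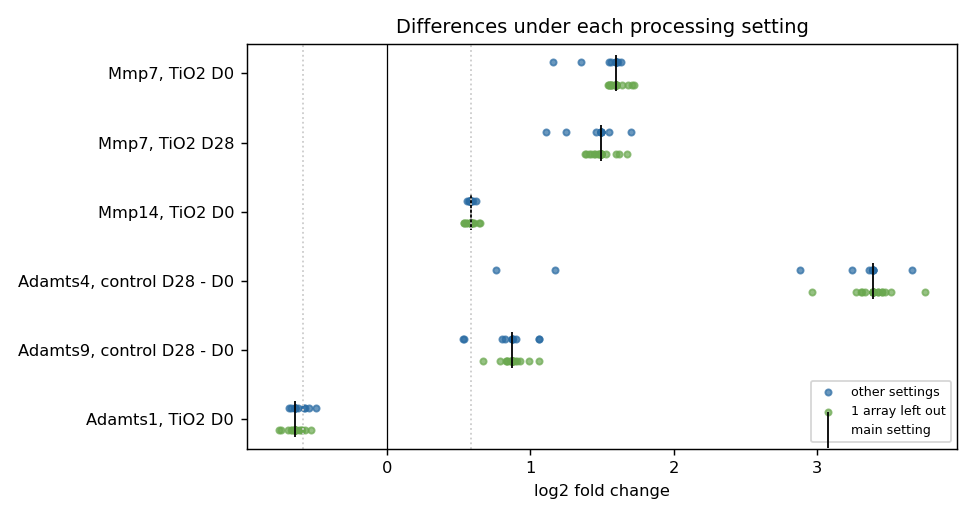
Log2 fold change of 6 differences under each processing setting (blue) and with each of the 23 arrays left out (green), with the main setting as a black bar and dotted lines at an FC of 1.5. Mmp7 stayed between 1.11 and 1.72, Mmp14 lay at the FC limit, and Adamts4 between the controls fell to 0.76 and 1.17 in settings with another treatment of background.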

How the data were processed

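Lung RNA of 23 elderly rats was hybridised to single-colour Agilent arrays, 1 rat per array. The authors deposited Feature Extraction output (11.0.1.1 for 22 arrays, 12.0.1.1 for control D28 replicate 4), whose intensities per spot are corrected for background but not normalized between arrays. They also deposited 1 table of linear intensities, quantile normalized, that follows the median signal (Spearman correlation of at least 0.99997). Gene names and rn4 positions are those of the array file of the later version.

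Here control spots and outlier spots were left out. A probe had to exceed, on 5 or more arrays, the 95th percentile of the 308 negative controls (40417 of 45598 did). Log2 processed signals were quantile normalized, and spots and then probes of a gene were averaged (32415 probes, 23029 genes, 29 dropped for a missing value). Group means were fitted with limma 3.58.1 in R 4.3.3 (19 residual degrees of freedom, Benjamini-Hochberg over all genes). The fit was tested on simulated data. The number of arrays limits the precision, and each array was a different rat per the labels. The 75th percentile of the signal had group medians of 2233 and 2542 in D0 control and exposed rats and 1910 and 1713 on D28, and 69.5 to 77.9% of spots were well above background. Arrays of a group correlated at 0.9891 at most. Against a group with 0 arrays well above background, the fold is taken from the lowest signals well above background on its arrays. It is left out if that fold is under 1.

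Members, lists of related genes and cell markers, and 13 alternative settings beside leaving out each of 23 arrays were chosen with earlier results of these data known. Genes named are the members called, those past the adjusted p alone or without overlap on a day, a fixed set (Mmp2, Mmp3, Mmp7, Mmp8, Mmp9, Mmp12, Mmp13, Mmp14, Adamts1, Adamts4, Adamts5, Adamts9, Adamts13 and the Timp genes), unmeasured members and the called genes of the lists, of which 1 is not reported here. Lists of smooth muscle, cartilage, muscle and T cell markers were also computed, and held no called gene but Myl7 of cardiac muscle (log2 FC -0.60 on D0 and -0.63 on D28). On D0 all 6 smooth muscle and all 6 measured muscle markers were lower in exposed rats (median log2 FC -0.27 and -0.35). Of the cartilage markers 3 of 6 were lower, and of the T cell markers 1 of 6. On D28 the lower markers were 3 of smooth muscle, 4 of muscle, 4 of cartilage and 0 of T cells. Promoter letters came from RefSeq (GRCr8).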

Additional observations from a re-analysis of the deposited data

Results flagged for a closer look

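Among 72 combinations of 18 named members and 4 groups, 5 had 1 rat farther from the others than a gap test at the 95% level allows, where chance flags about 1 in 20. Timp3 in exposed rats of D0 had replicate 1 at 12.64, above the next at 11.99. In control rats of D28, replicate 6 had the lowest Mmp8 (4.67, the next at 6.33) and the lowest Mmp9 (3.86, the next at 5.40). Adamts5 in exposed rats of D28 had replicate 4 at 3.86, below the next at 4.91. Adamts9 in control rats of D0 had replicate 5 at 5.68, above the next at 5.14. Without that array the higher Adamts9 of D28 controls was 0.99 and passed (limma adjusted p = 0.0387).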

How the results depend on the processing

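The D0 count of 2 called members fell to 1 (Mmp7) with normexp correction, the deposited table and the probe with the highest mean signal, rose to 3 (Adamts1 added) with an intensity trend and robust estimation, and ranged from 1 to 3 when 1 array was left out. With the slide as a fixed term or random block or the filter by the software's mark it was 2, with Adamts1 in place of Mmp14. The D28 count of 1 became 0 with only the arrays of the day, and ranged from 1 to 3 without 1 array. The control count of 1 became 2 with 75th percentile scaling, the filter by the software's mark, the probe with the highest mean signal (Adamts9 added in each) and no fold limit (Mmp14 added), and ranged from 1 to 2 without 1 array. The difference between days called 0 members throughout. Over all genes, calls ranged from 221 to 659 on D0 and from 42 to 303 on D28, beside 412 and 174. Of 2484 values of named members under the alternatives, 0 called values changed sign, 13 calls were lost, 18 were gained and 28 uncalled values moved by more than their SE, mostly (Adamts4, Adamts5, Adamts9 and Mmp13) after normexp correction or in the deposited table. Exposed and control rats of the same replicate number had correlated deviations for some pairs of D28 and for no pair of D0 (correlations of -0.17 to 0.46 on D28 and -0.12 to -0.22 on D0), and not for every pair, so the numbers were not taken to pair rats. With the replicate block the counts were 2, 1, 0 and 1. Of 15 members with several probes, 6 had probes of both signs on D0 and 9 on D28, all uncalled.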
